A study of Mus musculus with 3 samples.

Results

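A set of 10 early response transcription factor genes was followed between an early and a late stage of mammary tumour growth: the Fos family (Fos, Fosb, Fosl1 and Fosl2), the Jun family (Jun, Junb and Jund), Egr1, Atf3 and Myc. They were chosen by gene symbol, and all 10 of 10 were found, on 13 of the 38976 rows of the value table. The whole table names 15056 genes. Of the 10 genes, 8 had 1 row, Myc had 2 and Fosl2 had 3.

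The mice were offspring of MMTV-PyMT mice, in which the mouse mammary tumour virus promoter drives the polyoma middle T oncoprotein in mammary epithelium, crossed with mice that carry B-actin-GFP, a fluorescent label. Single hyperplasias of pubertal donors were grafted into syngeneic hosts, and the outgrowths were collected as adenomas after 5 weeks or as late carcinomas after 18 weeks. Donor tissue of both stages carried the same transgenes, so no group without the oncoprotein is part of the comparison. The host's stroma and fat may be part of both stages. Each of 3 arrays of 2 channels held adenoma RNA in the Cy5 channel and late carcinoma RNA in the Cy3 channel. The dyes were never swapped, so an effect of the dye on a gene's ratio cannot be told apart from a stage difference. Agreement between arrays and differences between genes within an array do not separate them either. Whether the arrays stand for separate animals, pools or repeats is not in the labels. The p-values therefore describe the spread over these arrays, part or all of which may be technical.

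Each value is a log ratio of the channels of 1 array, read here as log2 of Cy5 over Cy3. Positive ratios are then likely on the adenoma side and negative ones likely on the late carcinoma side. This direction is an inference from the labelled dyes and from common practice, since the table names neither the log base nor the numerator, and all directions given below would turn together if the ratio ran the other way. A ratio gives no level, so neither the abundance of a transcript nor the presence of a cell type could be checked, and ratios of different genes are compared only as differences between stages. The number of arrays limits the precision.

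AP-1 is a family of dimers of basic leucine zipper (bZIP) proteins. Fos proteins bind DNA only together with a partner such as a Jun protein, whereas Jun proteins can also pair with each other. Growth factor receptors, RAS and the MAP kinases switch on Fos, Fosb, Jun, Junb, Egr1 and Myc soon after a stimulus as immediate-early genes, partly through serum response factor (SRF) and its ETS partners, and middle T is known to act on the same cascade through SRC and SHC. Fosl1 and Fosl2 follow later and lack the strong activation domain of Fos and FosB. Egr1 is a zinc finger activator, Atf3 a stress-induced bZIP factor that often represses, and Myc pairs with MAX to drive genes of growth and ribosome assembly.

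Both the Fos and the Jun family were split. Fosb and Fos, the strong activators, and Jund, the Jun gene with the steadiest expression in resting cells, rose on the adenoma side, with mean log2 ratios of 0.94 ± 0.14 (SD, n = 3), 0.66 ± 0.14 and 0.44 ± 0.14. Junb, Jun and Fosl1 lay on the late carcinoma side, at -0.73 ± 0.46, -0.55 ± 0.13 and -0.48 ± 0.15. These 6 of 10 genes passed an adjusted p of 0.05 (limma's moderated test, Benjamini-Hochberg over all 31058 genes and unnamed rows), 3 in each direction, with differences of 1.36-fold to 1.92-fold. Over everything tested, 25.1% passed, 15.9% above 0 and 9.21% below 0. Atf3, Myc, Egr1 and Fosl2 did not pass. The bulk RNA cannot tell fewer cells that express a gene from less RNA per cell. Without array 3, 0 of the 10 genes passed by limma, while 7 had an unadjusted p under 0.05 (8 in the fit of 3 arrays). The loss was general, as 1 of 31058 units passed without that array.

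**Figure D1:**
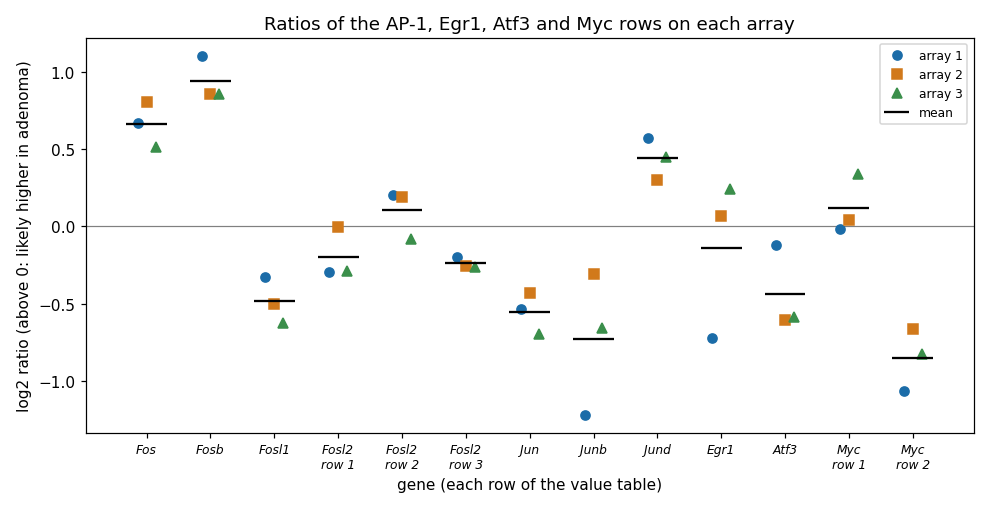
Log2 ratio (vertical axis) of each of the 13 rows on arrays 1, 2 and 3 (points), with the mean as a bar. Fos, Fosb and Jund lie above 0 and Fosl1, Jun and Junb below 0 on 3 of 3 arrays, while the rows of Myc separate.

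A second measured background bears on these values. The receptor genes of smell (olfactory and vomeronasal) had a median log2 ratio of 0.34 over 979 genes, and their means ran from -0.88 to 1.33, so the means of all 10 early response genes fall within that range. Fosb lay above 91.1% of the receptor genes, Fos above 73.3% and Jund above 56.0%. At the other end, Fosl1 lay above 1.63% of them, Jun above 1.02% and Junb above 0.102%. Centring each array on the receptor genes lowers every log2 ratio by 0.35 on average, and directions given as deposited are relative to the array's own centre. With that centring, 61.6% of all units passed, 7.33% above 0 and 54.3% below 0, and 7 of the 10 genes did: Fosb above 0, and Fosl1, Fosl2, Jun, Junb, Atf3 and Myc below 0. Fos (0.31, limma adjusted p = 0.0546) and Jund (0.090, adjusted p = 0.478) kept their sign without passing.

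**Figure D2:**
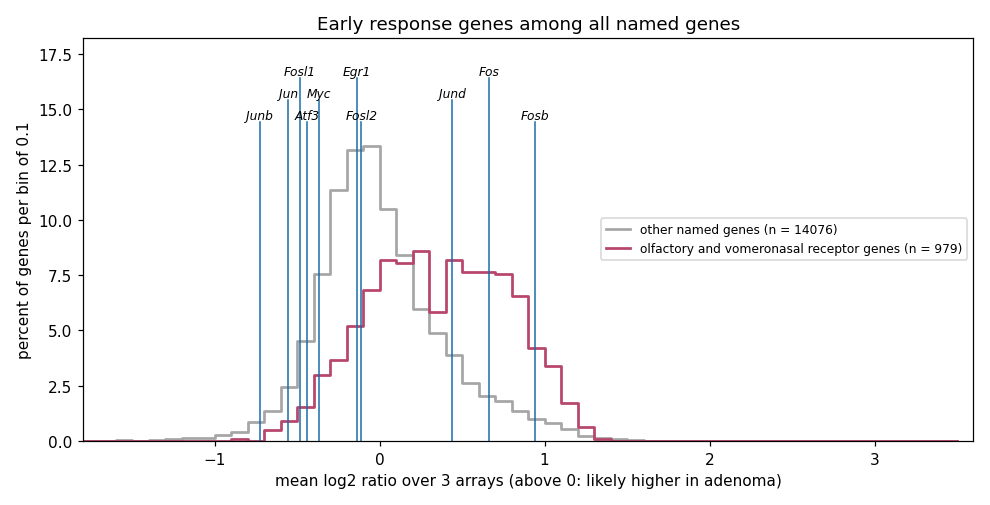
Percent of genes (vertical axis) per bin of mean log2 ratio (horizontal axis) for the 979 receptor genes and the other named genes. Blue lines mark the 10 early response genes, of which Fosb, Fos and Jund lie to the right of 0 and the other 7 to the left, all inside the range of the receptor genes.

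The proximal promoters of Fos and Fosb, which rose on the adenoma side, and of Jun and Junb, on the late carcinoma side, are shown because these 4 had the largest mean differences among the 10 genes. Each is the 150 bases before a transcript start, 5′ to 3′ on the gene's strand, taken from RefSeq on GRCm38.p6. Capitals mark matches, on either strand, to TGACG, the core of the site bound by cAMP response and ATF factors, to TGACNTCA, the site form bound by ATF and Jun proteins, and to TATAAA, the TATA box.
Fos, chr12:85473740-85473889, + strand: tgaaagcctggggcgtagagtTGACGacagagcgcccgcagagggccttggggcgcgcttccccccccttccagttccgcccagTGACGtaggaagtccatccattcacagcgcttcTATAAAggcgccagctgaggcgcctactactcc
Fosb, chr7:19310046-19310195, - strand: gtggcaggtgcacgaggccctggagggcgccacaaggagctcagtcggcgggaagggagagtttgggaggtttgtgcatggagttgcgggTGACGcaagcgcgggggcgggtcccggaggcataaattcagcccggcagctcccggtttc
Jun, chr4:95052223-95052372, - strand: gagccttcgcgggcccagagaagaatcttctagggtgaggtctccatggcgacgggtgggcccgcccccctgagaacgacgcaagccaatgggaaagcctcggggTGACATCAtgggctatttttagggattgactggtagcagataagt
Junb, chr8:84978749-84978898, - strand: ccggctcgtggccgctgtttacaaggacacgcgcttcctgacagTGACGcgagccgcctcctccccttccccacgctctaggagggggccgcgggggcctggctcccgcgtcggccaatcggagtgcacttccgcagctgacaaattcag

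Promoter windows of 7 of the 10 genes were searched, Fos, Fosb, Fosl2, Jun, Junb, Jund and Atf3. Among the 10 genes, any window on chromosome 18, which holds Egr1, was left out, so the counts below say nothing of Egr1. The shares over all windows were taken without that filter. Fosl1 and Myc had no match in the promoter table. In the 250 bases before the start, TGACG was found in 4 of the 7 windows (Fos, Fosb, Junb and Atf3), against 17.8% of all 32851 windows of that length, so it stands in genes on both sides of 0. The Fos window holds it at -129 and at -66, and the Fosb window at -60. TGACNTCA, which contains TGACG where N is G, was found in Jun at -45 and in no other of the 7 windows, against 7.49% of all windows. GGGCGG, the GC box, was found in 5 of 7, against 32.7%, and GCGNGGGCG, the Egr site, which can overlap it, in Fosb and Fosl2, against 4.70%. TATAAA was found in Fos alone, against 12.4%. TGANTCA (6.75% of windows), the E-box CACGTG (6.02%) and the CArG box bound by SRF (1.47%) were searched on both strands and matched in 0 of the 7 windows. Bases farther than 250 from the start were not searched, so a site there, for SRF or another factor, would be missed.

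Fosb, the gene of the activator FosB and of its truncated form, had log2 ratios of 1.11, 0.857 and 0.860 on arrays 1, 2 and 3. It was the highest of the 10 genes on each array, and array 1 was the highest of its 3 values. The mean of 0.94, a 1.92-fold difference with a 95% interval of 0.68 to 1.20 on the log2 scale (as are all intervals here), passed (limma adjusted p = 0.0117) and exceeded 97.2% of named genes. Fos, the founding member of AP-1, had 0.667, 0.805 and 0.517, with array 2 the highest and array 3 the lowest, and the values of Fosb lay above those of Fos on every array. The mean of Fos, a 1.58-fold difference (interval 0.40 to 0.92), passed with an adjusted p of 0.0124. Fosb exceeded Fos by 0.28 ± 0.20 within arrays.

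Fosl1, which encodes FRA-1, had -0.326, -0.50 and -0.624, so all arrays put it on the late carcinoma side, opposite to Fos and Fosb. The mean difference was 1.40-fold (interval -0.75 to -0.22, adjusted p = 0.0245). Within arrays, Fosb lay above Fosl1 by 1.43, 1.36 and 1.48. Fosl1 did not pass without array 2 (-0.48, adjusted p = 0.0549). Fosl2, which encodes FRA-2, had a mean of -0.11 ± 0.094 (interval -0.36 to 0.14, adjusted p = 0.463), and its 3 rows did not share a sign. Their means were -0.20, 0.10 and -0.24, and the row at 0.10 changed sign between arrays.

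Jun, whose product is the partner of the Fos proteins, had -0.533, -0.433 and -0.694, below 0 on each array with array 3 the lowest. The mean of -0.55, a 1.47-fold difference (interval -0.81 to -0.30), passed with an adjusted p of 0.0165. Junb, a weaker activator that can restrain Jun, had -1.218, -0.305 and -0.660, the widest spread of the 6 genes that passed. Array 1 lay farthest from 0, and the 1.66-fold mean difference (interval -1.15 to -0.30, adjusted p = 0.0290) fell in size from -0.73 to -0.48 without it (adjusted p = 0.0394). Jund had 0.575, 0.298 and 0.448, above 0 on each array and a 1.36-fold difference on average (interval 0.18 to 0.70, adjusted p = 0.0302). It exceeded Jun by 1.11, 0.731 and 1.14 within arrays. Jund did not pass without array 1 (0.37, adjusted p = 0.0644).

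The difference between Fos and Jun, which subtracting 1 constant from an array cannot move, was compared directly as the pair forms the classical AP-1 dimer. Fos exceeded Jun by 1.20, 1.24 and 1.21 on the log2 scale, a mean of 1.22 ± 0.020 (n = 3) or 2.32-fold, in the same direction on 3 of 3 arrays. The exact two-sided sign-flip permutation test gave p = 0.25, the smallest that 3 arrays allow. With a running median of 29 rows taken off each array, the difference was 1.06. The other within-array differences given here were chosen after the values were seen and carry no test.

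Egr1 had -0.719 on array 1, 0.066 on array 2 and 0.242 on array 3, so the arrays did not share a sign. Its mean was -0.14 ± 0.51 (interval -0.59 to 0.32, adjusted p = 0.625), and it was the only one of the 10 genes whose gene values changed sign between arrays. Without array 1 its mean was 0.15 (adjusted p = 0.399). Fos exceeded Egr1 by 1.39, 0.739 and 0.275, so these immediate-early genes lay apart on each array, by amounts that differed between arrays.

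Atf3 had -0.121, -0.606 and -0.589, below 0 on each array, with array 1 nearest to 0. Its mean of -0.44 ± 0.28 missed the threshold (interval -0.76 to -0.12, adjusted p = 0.0534). Without array 1 it was -0.60 and passed (adjusted p = 0.0154). It moved the other way without array 2 (-0.355, adjusted p = 0.161) and with the running median (-0.31, 0.169).

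Myc depended on the row. The first of its rows had -0.017, 0.045 and 0.337, with a mean of 0.12 ± 0.19 (adjusted p = 0.496 in the fit of every row, in which 26.0% of 38975 rows passed). The second had -1.068, -0.665 and -0.827, with a mean of -0.85 ± 0.20, a 1.81-fold difference toward the late carcinomas (adjusted p = 0.00966). The 2 rows did not overlap on any array, although the platform annotation assigns both to the same transcript. Their average, -0.37 ± 0.16, did not pass (adjusted p = 0.0542), and which row reflects the transcript could not be settled, since no probe sequence was used here. In the fit of every row, 7 of the 13 rows passed, those of Fos, Fosb, Fosl1, Jun, Junb and Jund and the second of Myc.

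From the adenoma side down, the mean log2 ratios ran in the order Fosb, Fos, Jund, Fosl2, Egr1, Myc, Atf3, Fosl1, Jun and Junb. Fosb and Fos (0.28 ± 0.20), and Jund and Fosl2 (0.55 ± 0.20), were the neighbours whose within-array difference exceeded its SD. The other neighbours in that order differed by less than the spread over arrays. The step between Jund and Fosl2 separates the 3 genes above 0 from the 7 below.

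**Figure D3:**
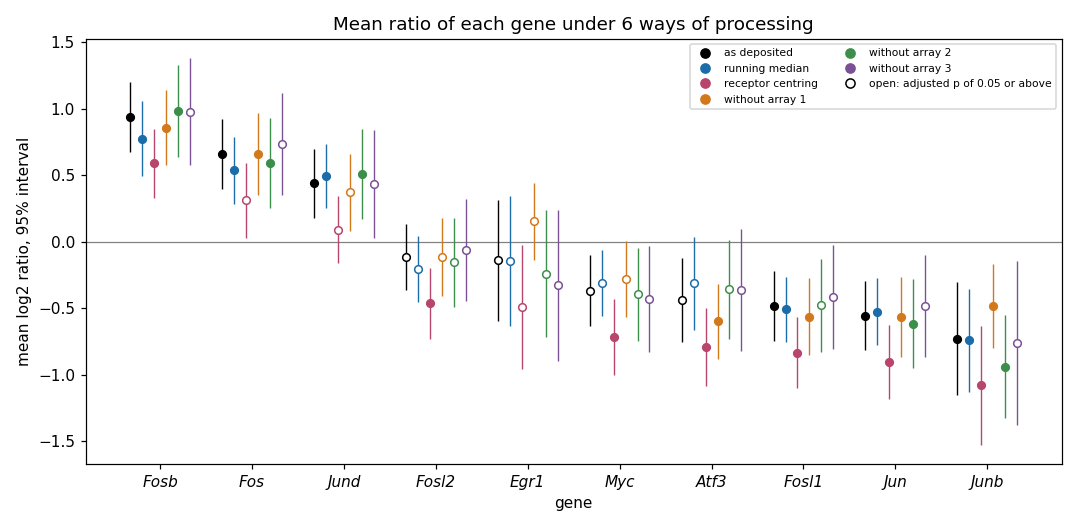
Mean log2 ratio (vertical axis) with its 95% interval for each gene as deposited, with a running median of 29 rows taken off, centred on receptor genes, and without each array. Filled points passed an adjusted p of 0.05. Fosb, Fos and Jund stay above 0 and Junb, Jun and Fosl1 below 0 in these 6 settings, while Egr1 turns sign without array 1.

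By the distance between log2 ratios over the 3 arrays, the named genes with the pattern nearest to Fos were Scgb1b27 (0.0786) and the olfactory receptor gene Olfr202 (0.0875). Nearest to Fosb were Avil (0.0400) and F8a (0.0846), and to Jund Tmem131l (0.0298) and Dsc1 (0.0367). On the other side, Rara (0.0112) and Mto1 (0.0296) were nearest to Fosl1, Ptov1 (0.0447) and Dlx4 (0.0465) to Jun, and Klhl4 (0.0683) and Bzw2 (0.0725) to Junb. Over 3 arrays and 15055 named genes such neighbours are common, and nothing is drawn from them.

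Other bZIP factors that can pair with Fos, Jun or each other passed at a share near the background. Of 26 measured, 3 passed above 0 and 5 below 0, or 30.8% against 25.1% of all units, with a median of -0.060 against -0.019. Mafk, a small MAF protein without an activation domain, had 1.04 ± 0.21, Creb5 0.66 ± 0.41 and Atf2, a partner of Jun, 0.43 ± 0.11, with row means from -0.17 to 1.22. Cebpb, a factor of alveolar development and inflammation, had -0.63 ± 0.17, Nfe2l1 -0.58 ± 0.27, Atf1 -0.56 ± 0.29, Batf3, a Jun partner of immune cells, -0.52 ± 0.19 and the stress factor Ddit3 -0.41 ± 0.040. With receptor centring, Mafk still passed above 0, while Creb5 (0.31, adjusted p = 0.113) and Atf2 (0.083, adjusted p = 0.517) did not. Without array 1, Atf1, Atf2 and Ddit3 lost their calls (adjusted p = 0.0520, 0.0603 and 0.0527), and without array 2 Atf2 and Ddit3 (0.0623 and 0.0784). Batf3 did not pass with the running median (-0.36, adjusted p = 0.0676), nor Atf2 with its first row (0.25, 0.174), and Creb5 was 0.42 without array 1.

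Upstream of AP-1, 1 of 25 measured MAP kinase cascade genes passed above 0 and 2 below 0. Their share of 12.0% is below the 25.1% of all units, and their median was -0.12. At an unadjusted p under 0.05 (limma), 3 of the 25 lay above 0 and 7 below, where 12545 of 31058 units reached it. The lower share is therefore limited to the adjusted threshold. Map2k1, the MEK1 kinase that activates ERK, had 0.46 ± 0.11, and with receptor centring 0.11, no longer past the threshold (adjusted p = 0.443). Map2k5, the kinase of the ERK5 branch, had -1.05 ± 0.54, and Mapk8ip3, a JNK scaffold, -0.46 ± 0.21. Map2k1 did not pass without array 2 (adjusted p = 0.0798), nor Mapk8ip3 without array 1 (0.0805), and with the running median neither passed (0.0819 and 0.106). The JNK gene Mapk8 had 0.14 ± 0.042 and Mapk9 -0.34 ± 0.071, neither past the threshold. Among SRF, its ETS and MRTF partners and the Egr corepressors, 18.2% of 11 genes passed, against 25.1% of all units. Of these genes, 0 passed above 0 by limma, where 0 also had an unadjusted p under 0.05, and 2 below 0, with 3 unadjusted. These were the ETS partner Elk3 (-0.39 ± 0.032) and the SRF coactivator gene Mrtfb (-0.39 ± 0.19), which lost their calls without array 1 (adjusted p = 0.0505 and 0.120) or array 2 (0.106 and 0.0947), with the running median (0.0591 and 0.0799) and with their first rows (0.364 and 0.0552).

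Of 45 other early response genes measured, 4 passed on the adenoma side and 6 on the late carcinoma side. Their share of 22.2% is near the 25.1% of all units, and their median was -0.090. Klf10, a TGF-beta induced repressor, had 1.13 ± 0.49, the antiproliferative gene Btg2 1.02 ± 0.27, Ier5 0.91 ± 0.49 and Tiparp 0.62 ± 0.34. The first 3 also passed with receptor centring. Below 0 were Gadd45a, a stress sensor (-0.62 ± 0.18), Zfp36l2, which destabilises messenger RNA (-0.51 ± 0.11), Ier2 (-0.49 ± 0.26), Trib1 (-0.49 ± 0.11), the ERK phosphatase gene Dusp6 (-0.48 ± 0.11) and Hbegf, an EGF receptor ligand gene (-0.39 ± 0.16). Without array 1, Ier2 and Hbegf lost their calls (adjusted p = 0.0695 and 0.104), and Hbegf also without array 2 (0.0525). With the running median Dusp6 (adjusted p = 0.0532) and Hbegf (0.0952) did not pass. With the first row of the gene, neither did Dusp6 (-0.16, 0.341) nor Trib1 (-0.24, 0.161). The relatives of Egr1 did not pass: Egr2 had -0.093 ± 0.087, Egr3 -0.092 ± 0.045 and Egr4 0.28 ± 0.14. Neither did Nr4a1 (0.22 ± 0.25), Dusp1 (-0.18 ± 0.51) or Zfp36 (-0.012 ± 0.10), which respond to the same stimuli as Fos.

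**Figure D4:**
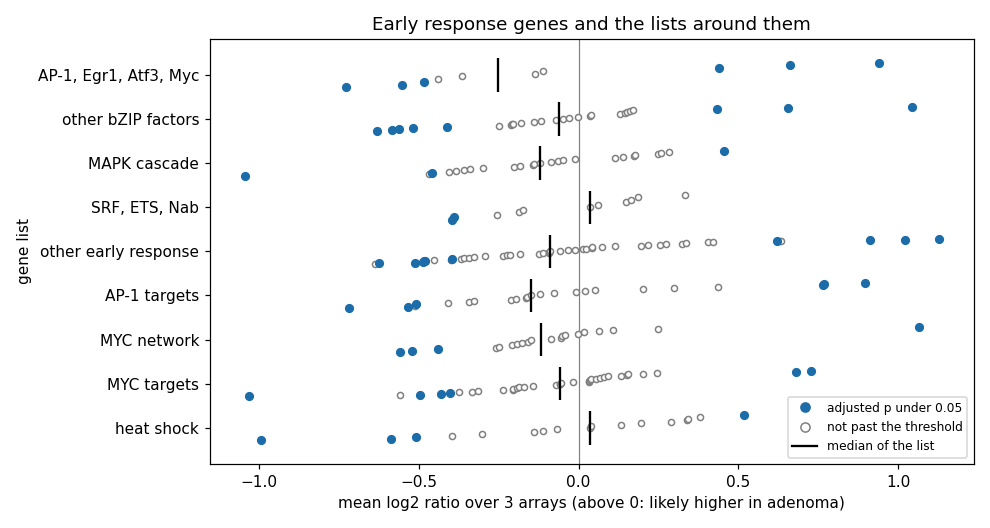
Mean log2 ratio over 3 arrays (horizontal axis) of each gene in the early response group and 8 surrounding lists, with filled points for an adjusted p under 0.05 and a bar at each list's median. Every list except the SRF group holds filled points on both sides of 0.

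Of 23 measured genes known to be controlled through AP-1 sites, 3 passed above 0 and 3 below 0, with a median of -0.15. Their share of 26.1% is near the 25.1% of all units. The cytokine gene Il6 (0.77 ± 0.40) and the keratinocyte envelope gene Lor (0.90 ± 0.49) lay on the adenoma side, and the stromelysin-2 gene Mmp10 (-0.53 ± 0.088) and the ezrin gene Ezr (-0.72 ± 0.29) on the late carcinoma side.

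Around Myc, 1 of 20 measured genes of its network passed above 0 and 3 below 0. Their share was 20.0% against 25.1% of all units, and their median was -0.12. The paralogue Mycn had 1.57, 0.416 and 1.21 on the 3 arrays, a 2.09-fold mean difference toward the adenomas (1.07 ± 0.59, adjusted p = 0.0173). It lay above both Myc rows on each array. Ruvbl2 (-0.56 ± 0.043) and Ruvbl1 (-0.44 ± 0.043), ATPases that act as MYC cofactors, and Mga, a MAX partner (-0.52 ± 0.15), lay on the late carcinoma side. Among 35 measured MYC target genes of ribosome assembly and growth, 2 passed above 0 and 4 below 0. Their share was 17.1% against 25.1% of all units, and their median was -0.058. Ddx18 had 0.73 ± 0.032 and Nop16 0.68 ± 0.18, whereas the nucleophosmin gene Npm1 had -1.03 ± 0.74 and Pa2g4 -0.43 ± 0.20. Ruvbl1 did not pass without array 2 (adjusted p = 0.0682), nor Pa2g4 without array 1 (0.0939), and with the running median neither did (0.0578 and 0.0750), nor Npm1 (0.0524). Npm1 was -0.62 without array 1, and with its first row -0.59 (adjusted p = 0.127), where Ruvbl1 did not pass either (0.143).

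Stress and cell type markers are given beside the 25.1% of all units that passed, 15.9% above 0 and 9.21% below 0. The part of these markers in the ratios was not tested. Of 17 measured heat shock genes, 1 passed above 0 and 3 below 0, or 23.5% (median 0.035, range -0.99 to 0.52). Above 0 was Dnajb4 (0.52 ± 0.24), with row means from -0.13 to 1.17. Below 0 were the chaperone genes Hspa8 (-0.99 ± 0.58) and Cryab (-0.59 ± 0.20), and Hsph1 (-0.51 ± 0.23). Dnajb4 and Hsph1 lost their calls without array 1 (limma adjusted p = 0.0563 and 0.0582). Dnajb4 also did so with receptor centring (0.247) and its first row (0.484), and Hsph1 with the running median (0.0799). Adipocyte markers held 5 of 11 above 0 and 0 below 0, with 2 below 0 at an unadjusted p under 0.05 (limma), and Fabp4, the fat cell fatty acid carrier, was the highest at 3.49 ± 0.60. Endothelial markers held 2 of 12 above and 0 below, with 3 below unadjusted, and ranged from -0.44 to 0.69. Epithelial markers held 2 of 15 above and 2 below (range -1.16 to 0.63), fibroblast markers 1 of 14 and 1 (-0.84 to 0.42), macrophage markers 2 of 13 and 2 (-1.09 to 0.97), T cell markers 1 of 7 and 1 (-0.37 to 0.75) and skeletal muscle markers 2 of 10 and 1 (-0.89 to 0.62). The list medians were 0.17 for adipocytes, 0.037 for endothelial cells, -0.15 for epithelium, -0.10 for fibroblasts, -0.29 for macrophages, -0.23 for T cells and -0.095 for muscle. In the same order, the shares that passed were 45.5%, 16.7%, 26.7%, 14.3%, 30.8%, 28.6% and 30%. With receptor centring, Cdh1, Cldn3, Postn, Adgre1, Esam, Lep, Lpl, Pvalb and Acta1 lost their calls above 0. Fabp4, Car3, Kdr, Ctss and Cd3g kept theirs. Cldn3 and Postn also lost their calls with the running median (limma adjusted p = 0.0509 and 0.131) and without array 2 (0.0769 and 0.124), and Cd2, below 0, without array 2 (0.134).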

How the data were processed

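The deposited table gives log2 ratios of the channels of each array, as read from the values. Dyes are per the labels. Not given in the sources used here are the log base, numerator, scanner, background correction and normalization. Array medians were -0.012, -0.025 and -0.033, and 1 value was missing. Rows were named through the platform annotation: 22973 had 1 gene symbol, 0 several and 16003 none. All 22973 matched a gene identifier in the GRCm38.p6 table, used for names, and 0 symbols changed.

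Gene values are the mean of a gene's rows on each array, and 31058 genes and unnamed rows measured on 3 arrays were fitted with limma 3.58.1 in R 4.3.3 (intercept, eBayes, two-sided, 95% intervals, adjusted p under 0.05). Each of 38975 rows was also fitted alone. The code of the fit was tested on simulated independent normal values with added differences. Those values held no dye effect and no shifted background, so the test does not cover either. The 10 genes and all lists were chosen with earlier results of these data known. Of 345 list entries, 294 were measured. Named in the text were the 10 genes, the 2 nearest genes of each called gene, and up to 4 passing genes per list, by smallest p. In a list with no passing gene, the rule was up to 2 by largest absolute mean. Other list genes (Creb5, Atf2, Atf1, Ddit3, Mapk8, Mapk9, Egr2, Egr3, Egr4, Nr4a1, Dusp1, Zfp36, Zfp36l2, Ier2, Trib1, Dusp6, Hbegf and Tiparp) were named after their values were seen. Alternatives were median, receptor and running-median (29 rows) centring, scaling, the first row or the median of a gene's rows, each row alone, a robust variance model, array weights, named genes alone, an adjusted p of 0.1 and leaving out each array. Plots used matplotlib 3.10.9 (Python 3.11.15).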

Additional observations from a re-analysis of the deposited data

How the results depend on the processing

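Over all units, 7809 passed (63.4% of them above 0). With receptor centring 19138 passed (11.9% above 0), with array weights 12036, with named genes alone 4274, and on leaving out 1 array 1 to 7324, the lowest without array 3, where 7758 had an unadjusted p under 0.05 by limma. Among the 10 genes, 6 passed, and 0 to 6 on leaving out 1 array. Among their 13 rows, 7 passed, and 0 to 7 on leaving out 1 array. Without array 3, 7 genes and 7 rows had an unadjusted p under 0.05. In the other settings run, 6 to 8 of the 10 genes passed. Atf3 and Myc, which missed the threshold, passed with array weights (adjusted p = 0.00930 and 0.0411), receptor centring (0.00423 and 0.00468) and named genes alone (0.0451 and 0.0437). As deposited, both lie under an adjusted p of 0.1. Their adjusted p rose without array 2 (0.161 and 0.102) and with the running median (0.169 and 0.0752), and that of Myc also without array 1 (0.134). Fosl2 passed below 0 with receptor centring (-0.46, adjusted p = 0.0124). The sign of Egr1 turned with array weights (0.060) and without array 1 (its range on leaving out 1 array being -0.33 to 0.15), and that of Myc with its first row (0.12). The sign of the other 8 genes was the same in the 8 alternatives that moved the mean of every gene. Fos minus Jun was 1.06 with the running median and 1.21 to 1.22 on leaving out 1 array; the cause of the smaller value was not tested. Each ratio already pairs the stages on 1 array, and no further block could be fitted since all arrays form 1 group.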
